A study of Homo sapiens with 11 samples.

Results

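The Th2 cytokine locus is a cluster of cytokine genes on human chromosome 5, taken here as the 155 kb from 131870000 to 132025000 in the genome build hg19. Its members were 4 genes taken by position, in a locus picked because it is known as a target of MINA, described below. IL5 lies at 131877130 to 131879220 on the minus strand. RAD50 at 131892610 to 131980320, IL13 at 131993860 to 131996810 and IL4 at 132009670 to 132018580 all lie on the plus strand. Of the 229591 intervals of enriched chromatin in 10 interval lists, 17 touched the locus. The lists came from chromatin immunoprecipitation and sequencing in MDA-MB-231, an established human breast cancer line of epithelial origin and not a T cell. The WT cells had normal mdig protein and the KO cells had none. Per the labels both were generated with CRISPR-Cas9 and both grew in medium with blasticidin. Whether the KO cells were 1 clone is not given in the sources used here. Antibodies against H3K4me3, H3K36me3, H3K9me3, H4K20me3 and MINA were each used on 1 WT and 1 KO chromatin sample.

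IL4, IL5 and IL13 encode the signature cytokines of T helper 2 lymphocytes, which drive antibody class switching, eosinophil production and mucus secretion. RAD50, which sits among them, encodes a subunit of the MRE11-RAD50-NBN complex for DNA double-strand break repair and is expressed in most dividing cells. The part of RAD50 near its 3′ end holds the locus control region through which T cells open the cytokine genes. Mdig is the JmjC-domain oxygenase also named MINA or RIOX2, and in mouse T helper cells it is known as a repressor of Il4 acting at the Il4 promoter. H3K4me3 marks active promoters, H3K36me3 lies over transcribed gene bodies, and H3K9me3 and H4K20me3 mark silent chromatin.

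Each list gives where a mark was called and no height. An absent interval is therefore a place below the caller's threshold, not a place without the mark. How deeply the libraries were sequenced is unknown. With 1 library per antibody and genotype no replicate check exists, no test was run, and each comparison describes these libraries only. As background, chromosomes 1 to 22 and X were tiled into windows of 155 kb. A window was called lower where KO covered at most 0.5 of the WT length and higher where it covered at least 2 times that length, among windows with 2 kb or more in WT and KO together. Transcript levels were not used here, so the cell line was not checked against marker genes.

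MINA was called at a single place in the locus. No MINA interval lay over IL4, IL5 or IL13 in either genotype. Of all 19587 windows of 155 kb, 65.9% held no MINA interval in WT and 75.6% held none in KO. Each of these windows is longer than any of the cytokine genes. The 1 MINA interval of the locus lay over the start of RAD50 in WT cells. The MINA list of the KO cells, which per the labels lack the protein, still held 7859 intervals over all chromosomes, beside 16353 in WT. Over the whole locus the lists of H3K4me3 held 2 intervals in each genotype, those of H3K36me3 held 7 in WT and 4 in KO, and that of H4K20me3 held 1 in KO. The other 4 lists, which were H3K9me3 of both genotypes, H4K20me3 of WT and MINA of KO, held none. Of the 9 pieces into which the 4 genes divide the locus, 5 had no interval in any of the 10 lists. No background share was counted for pieces of their length. Windows of 155 kb, longer than any piece, were often empty in both genotypes as well. The shares were 50.1% for H3K4me3, 63.4% for H3K36me3, 29.4% for H3K9me3, 46.4% for H4K20me3 and 63.4% for MINA.

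**Figure D1:**
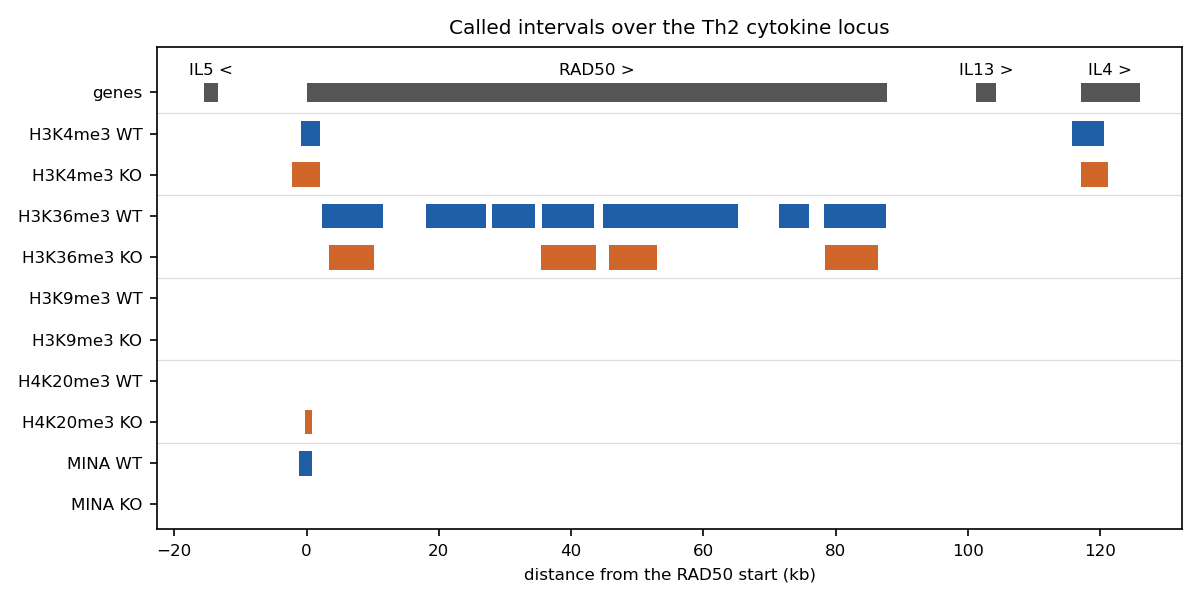
Intervals of the 10 lists over the Th2 cytokine locus, with distance from the RAD50 start in kb on the horizontal axis and 1 row per antibody and genotype (WT blue, KO orange) below the 4 genes (arrowheads give the strand). H3K4me3 lies over the RAD50 start in both genotypes. At IL4 it lies over the start in WT and begins 131 bases after it in KO, under 1 step of the 200-bp grid. H3K36me3 lies over RAD50 with 7 intervals in WT and 4 in KO, and IL5 and IL13 are empty.

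The promoters are shown because H3K4me3 was called over the RAD50 start in both genotypes, over the IL4 start in WT only, and over the IL13 start in neither. The KO interval at IL4 began 131 bases after the start, under 1 step of the 200-bp grid of the lists. Each sequence runs 5′ to 3′ from 250 bases before to 50 bases after the gene start, from RefSeq on GRCh38.p14, and capitals mark the CG dinucleotides. Entries were found for 3 of the 4 members, and IL5 had none. On GRCh38.p14 the RAD50 window is chromosome 5 from 132556727 to 132557026, that of IL13 is 132657923 to 132658222, and that of IL4 is 132673739 to 132674038, all on the plus strand.
RAD50: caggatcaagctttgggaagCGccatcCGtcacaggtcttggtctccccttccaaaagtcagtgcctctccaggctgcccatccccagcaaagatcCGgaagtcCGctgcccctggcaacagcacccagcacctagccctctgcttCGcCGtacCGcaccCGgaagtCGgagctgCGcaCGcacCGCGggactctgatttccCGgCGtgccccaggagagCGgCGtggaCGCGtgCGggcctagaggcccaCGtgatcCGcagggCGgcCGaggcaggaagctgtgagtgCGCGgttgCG
IL13: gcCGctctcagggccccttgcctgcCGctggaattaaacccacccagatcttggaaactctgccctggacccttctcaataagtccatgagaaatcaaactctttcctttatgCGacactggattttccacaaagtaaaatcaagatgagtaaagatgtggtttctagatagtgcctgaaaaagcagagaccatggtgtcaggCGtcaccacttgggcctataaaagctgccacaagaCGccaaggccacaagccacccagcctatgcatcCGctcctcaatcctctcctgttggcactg
IL4: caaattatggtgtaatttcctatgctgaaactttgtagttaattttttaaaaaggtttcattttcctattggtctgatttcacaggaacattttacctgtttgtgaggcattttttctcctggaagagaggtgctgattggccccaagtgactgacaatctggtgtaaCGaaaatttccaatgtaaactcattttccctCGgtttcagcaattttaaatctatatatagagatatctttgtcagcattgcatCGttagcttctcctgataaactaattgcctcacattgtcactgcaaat
RefSeq lists a pair of IL13 starts. The one shown lies 15816 bases before the IL4 start on GRCh38.p14, beside 15810 bases between the starts used on hg19, and the other lies 17467 bases before it.

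The 3 promoters differ in base composition. RAD50 holds 27 CG dinucleotides and 66.7% G or C. IL4 holds 3 and 35.3%, and IL13 holds 6 and 50.3%. The median over 35116 promoters of the RefSeq table was 14 CG dinucleotides and 58.7% G or C, and 28.2% of them held at least as many CG as RAD50. At most as many as IL4 were held by 24.5%. The other IL13 start holds 37 CG dinucleotides and 76.3% G or C, and of the 5 motifs counted next it holds 1 match, of GGGCGG. Matches of 5 short motifs were counted on both strands of the 3 promoters printed. GGAAA, the core bound by NFAT factors, occurred 4 times in IL4, 3 times in IL13 and 1 time in RAD50, and 61.2% of all promoters held it. CCAAT, the core bound by NF-Y, occurred 3 times in IL4 and in neither of the others, beside 34.6% of all promoters, and 1 of its matches shares bases with a GGAAA match. GGGCGG, which holds a CG and is the core bound by SP1, occurred 1 time in RAD50 and in neither of the others, beside 45.0% of all promoters. TATAAA occurred 1 time in IL13 alone (11.5% of all promoters). AGATAA, 1 form of the sites of GATA factors, occurred in none of the 3 (10.3%). Other forms were not counted, such as TGATAA, which can be read in IL4, and AGATAG, which can be read in IL13. These counts describe letters and not bound sites.

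At the start of RAD50, the gene for the DNA repair subunit, 4 of the 10 lists had an interval. H3K4me3 was called in both genotypes. In WT it spanned 2.8 kb from 131891801 to 131894600, and in KO 4.2 kb from 131890401 to 131894600. Both ended at the same step of the 200-bp grid, 1.99 kb inside the gene. The KO interval reached 2.21 kb before the start where the WT interval reached 0.81 kb. The KO interval was thus 1.5 times as wide, the added 1.4 kb lying on the side away from the gene. Among 15690 H3K4me3 intervals that paired 1 to 1 between the genotypes, 27.4% were wider in KO, and 3.89% had a KO over WT width ratio as high as that of RAD50. Within 10 Mb on either side of the locus 68 of 154 pairs (44.2%) were wider in KO. In WT the RAD50 interval was narrow for this mark, since 21.8% of the 19210 WT intervals were narrower and the median was 5.4 kb.

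MINA and H4K20me3 met the same RAD50 start in opposite genotypes. The WT MINA list had an interval of 2.0 kb from 131891401 to 131893400, which shared 1.6 kb with WT H3K4me3. The KO MINA list had none, and its nearest interval lay 65.6 kb before the RAD50 start. The KO H4K20me3 list had an interval of 1.0 kb from 131892401 to 131893400, and the WT list had none within 418 kb of the start. That WT list was sparse everywhere, with 8539 intervals beside 25318 in KO. It had no interval in 76.8% of the windows of 155 kb. The H4K20me3 interval of KO lay wholly inside the MINA interval of WT and ended at the same step of the 200-bp grid. Both were small for their lists, since 14.8% of WT MINA intervals and 1.65% of KO H4K20me3 intervals were narrower.

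Neither difference stood out from its list. A WT MINA interval had no KO overlap in 61.2% of 16353 cases and in 47 of 115 within 10 Mb (40.9%). A KO H4K20me3 interval had no WT overlap in 80.4% of 25318 cases and in 161 of 177 within 10 Mb (91.0%). Of the 15690 paired H3K4me3 intervals, 29.2% met MINA in WT only and 19.4% met H4K20me3 in KO only. Within 10 Mb these shares were 21.4% and 28.6% of 154. Both held for 905 of them (5.77%), and for 10 of the 154 within 10 Mb (6.49%). This combination was chosen for counting after it had been seen at RAD50.

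**Figure D2:**
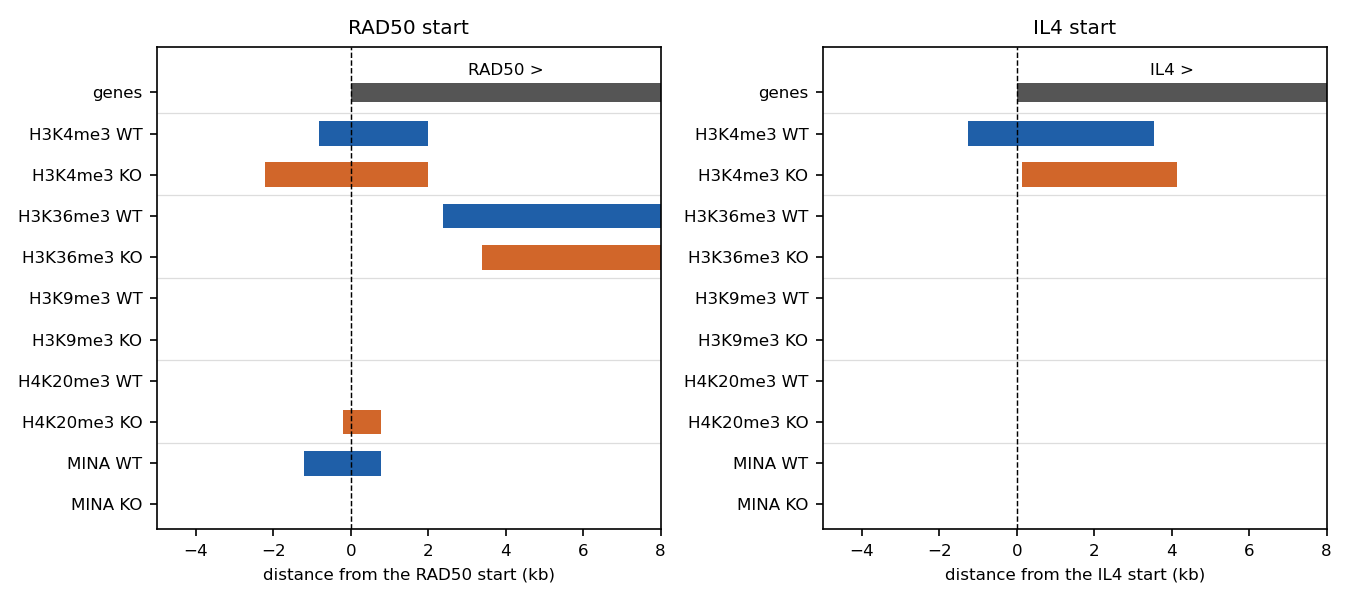
Intervals of the 10 lists around the starts of RAD50 (left) and IL4 (right), with distance from the start in kb on the horizontal axis, the start as a dashed line, WT in blue and KO in orange. At RAD50 the H3K4me3 interval is 2.8 kb wide in WT and 4.2 kb in KO and meets MINA in WT and H4K20me3 in KO, whereas at IL4 H3K4me3 is the only mark and the KO interval begins 131 bases inside the gene.

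Along the body of RAD50 H3K36me3 covered 67.2 kb of 87.7 kb in WT (76.6%) and 30.4 kb in KO (34.7%). The KO over WT ratio was 0.452. In WT the mark began 2.39 kb after the gene start, 0.4 kb past the end of H3K4me3, and its last interval stopped 0.12 kb before the gene end. In KO it began 3.39 kb after the start and stopped 1.32 kb before the end. H3K36me3 of the locus lay inside RAD50 only and touched none of the cytokine genes or intergenic parts.

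The 7 WT intervals over RAD50 were 4.6 to 20.4 kb wide and lay 0.8 to 6.4 kb apart. The 4 KO intervals were 6.8 to 8.4 kb wide with gaps of 2.0 to 25.4 kb. Each KO interval met a WT interval, and 0.6 kb of the KO length lay outside the WT length, against 37.4 kb of WT length outside KO. The WT intervals from 131910601 to 131919800, from 131920601 to 131927200 and from 131964001 to 131968600 had no KO overlap. That is 3 of 7, beside 14.5% of 17507 WT H3K36me3 intervals in all and 10 of 156 within 10 Mb (6.41%), these 3 included. All 7 are pieces over the same gene and not separate cases. When intervals within 5 kb are joined, each of these 3 becomes part of a longer WT interval that meets KO. The widest WT interval, of 20.4 kb from 131937401 to 131957800, met a KO interval of 7.2 kb from 131938401 to 131945600.

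The KO intervals left RAD50 covered in patches. Cut into 5 equal parts of 17.5 kb from the 5′ end, the first held 9.2 kb in WT and 6.8 kb in KO. The second held 15.8 kb in WT and 0 kb in KO. The third held 15.6 kb in WT and 15.2 kb in KO, so the middle of the gene had nearly the same length in both. The fourth held 12.6 kb in WT and 0.365 kb in KO, and the last 14.0 kb in WT and 8.0 kb in KO. The fourth and last parts make up the 3′ portion of the gene, next to IL13.

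**Figure D3:**
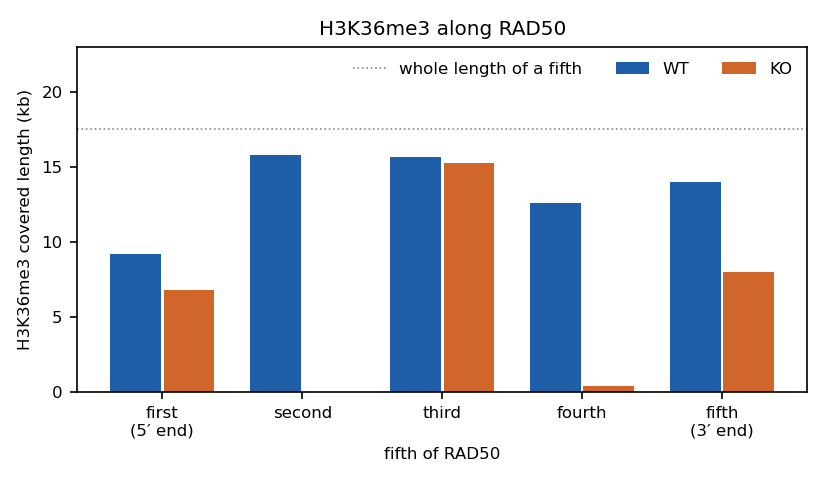
H3K36me3 covered length in kb (vertical axis) in 5 equal parts of RAD50 from the 5′ to the 3′ end, for WT (blue) and KO (orange), with a dotted line at the 17.5 kb length of a part. KO holds 0 kb in the second part and 0.365 kb in the fourth, and 15.2 kb beside 15.6 kb of WT in the third.

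Lower H3K36me3 of this size was uncommon in the region. Over all chromosomes 10.1% of 7107 windows of 155 kb were called lower in KO and 10.0% higher. Among the 3880 windows with at least 0.5 of the WT length of the locus 5.70% were called lower. Within 10 Mb of the locus 1 of 69 windows was called lower (1.45%), from 122760001 to 122915000, and 17 were called higher (24.6%). In the same 10 Mb KO covered 1.22 times the WT length. Of the 36 windows there with at least 0.5 of the WT length of the locus, the lowest ratio was 0.532, in the window that holds 75.3 kb of RAD50. The other 35 ran from 0.862 to 2.00 with a median of 1.06.

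**Figure D4:**
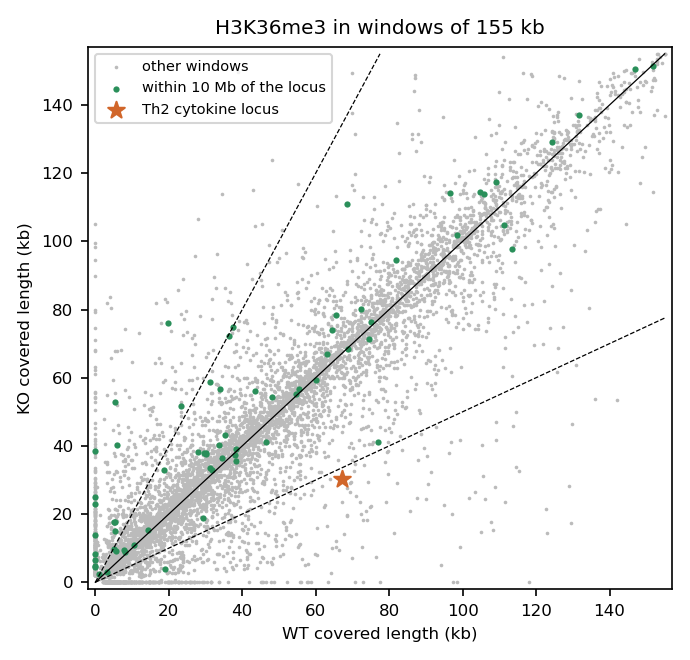
H3K36me3 covered length in kb in WT (horizontal axis) and KO (vertical axis) for windows of 155 kb with 2 kb or more covered, with equal lengths on the solid line and 2-fold differences on the dashed lines. The Th2 cytokine locus (star, 67.2 kb in WT and 30.4 kb in KO) lies below the lower dashed line, and of the windows within 10 Mb (green) 1 does.

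IL4 carried H3K4me3 in both genotypes and no other mark. In WT the interval spanned 4.8 kb from 132008401 to 132013200, of which 1.27 kb lay before the gene start and 3.53 kb inside the gene. In KO it spanned 4.0 kb from 132009801 to 132013800 and lay wholly inside the gene, its edge 131 bases after the start. Since the lists have a 200-bp grid and the gene ends are rounded to 10 bp, that distance is under 1 grid step. Both edges lay further along the direction of transcription in KO, by 1.4 kb at the left and 0.6 kb at the right, and 3.4 kb were common to both genotypes. The Jaccard index of the pair, the common length over the joined length, was 0.630, and 17.9% of the 15690 pairs had one as low. At RAD50 it was 0.667.

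The width of the IL4 interval was not unusual for a promoter mark, with 42.1% of WT and 34.5% of KO intervals narrower. The KO over WT width ratio was 0.833, and narrower KO intervals were the more common kind, with 65.6% of all pairs and 79 of 154 within 10 Mb (51.3%). H3K4me3 with no interval of the other 8 lists, as at IL4, was found in 3453 of the 15690 pairs and in 38 of 154 within 10 Mb (24.7%), a count chosen after IL4 had been seen. The nearest H3K36me3 interval to the IL4 start lay 21.1 kb after it in WT and 19.5 kb after it in KO, both past the end of IL4 on the side of its neighbour KIF3A. The nearest MINA interval lay 97.5 kb away in WT and 154 kb away in KO, and the nearest H4K20me3 interval 301 kb away in WT and 72.9 kb in KO.

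IL13 and IL5, the cytokine genes on either side of RAD50, had no interval of any list over them. The nearest H3K4me3 to the IL13 start was that of IL4, 14.5 kb after it in WT and 15.9 kb in KO. The nearest H3K36me3 was the last one of RAD50, 13.7 kb before it in WT and 14.9 kb in KO. For IL5 the nearest H3K4me3 interval was that of the RAD50 start, 12.6 kb away in WT and 11.2 kb in KO. The 13.5 kb between RAD50 and IL13 and both outer flanks of 7.13 and 6.42 kb were likewise empty in all 10 lists. Of the 13.4 kb between IL5 and RAD50, H3K4me3 covered 0.81 kb in WT and 2.21 kb in KO, all of it next to RAD50. Of the 12.9 kb between IL13 and IL4, WT H3K4me3 covered 1.27 kb next to IL4 and KO had none.

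Marks of silent chromatin were rarely called here. No H3K9me3 interval touched the locus in either genotype. The nearest one in WT lay 295 kb from the IL5 start, and the nearest one in KO, of 1.0 kb, lay 30.2 kb from it. Windows of 155 kb with no H3K9me3 in either list made up 29.4% of 19587 windows, and 41 of 129 within 10 Mb. H4K20me3 covered 1.0 kb of the locus in KO and 0 kb in WT. Windows with no H4K20me3 in either list made up 46.4% of the 19587, and 50 of 129 within 10 Mb. Among windows with 2 kb or more, 62.1% of 9479 were called higher in KO and 63 of 69 within 10 Mb (91.3%). With 1.0 kb in all, the locus itself was under the 2 kb needed for a call.

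The locus was then set beside 6 windows of the same length on either side, laid end to end. Of these 12 windows 8 had enough H3K36me3 for a call, and their ratios ran from 0.973 to 7.45, with KO above WT in 7. The window just before the locus, on the side of the neighbour IRF1, held 16.6 kb of H3K36me3 in WT and 84.0 kb in KO, a ratio of 5.06. The window just after it, on the side of KIF3A, held 50 kb in WT and 61.0 kb in KO. The locus thus had less covered length in KO between a pair of neighbours that had more. For H3K4me3 the 8 windows ran from 0.695 to 1.18, and the locus, with 7.6 kb in WT and 8.2 kb in KO, had a ratio of 1.08. Over all chromosomes 9.24% of 9015 windows were called lower for H3K4me3 and 2.88% higher.

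H4K20me3 was longer in KO in 11 of the 12 windows, with up to 38.4 kb in one of them, and the remaining window had none in either genotype. The 1.0 kb of the locus was below the KO length of those 11 windows. MINA was lower in KO in 9 of the 12, and 6 of the 10 with enough for a call were called lower. Among all 6395 windows 62.3% were called lower for MINA and 7.58% higher, and within 10 Mb 21 of 53 (39.6%) were called lower. The 2.0 kb in WT and 0 kb in KO of the locus had this common direction. The locus held less MINA in WT than the windows on either side of it, with 22.6 kb before and 14.6 kb after.

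**Figure D5:**
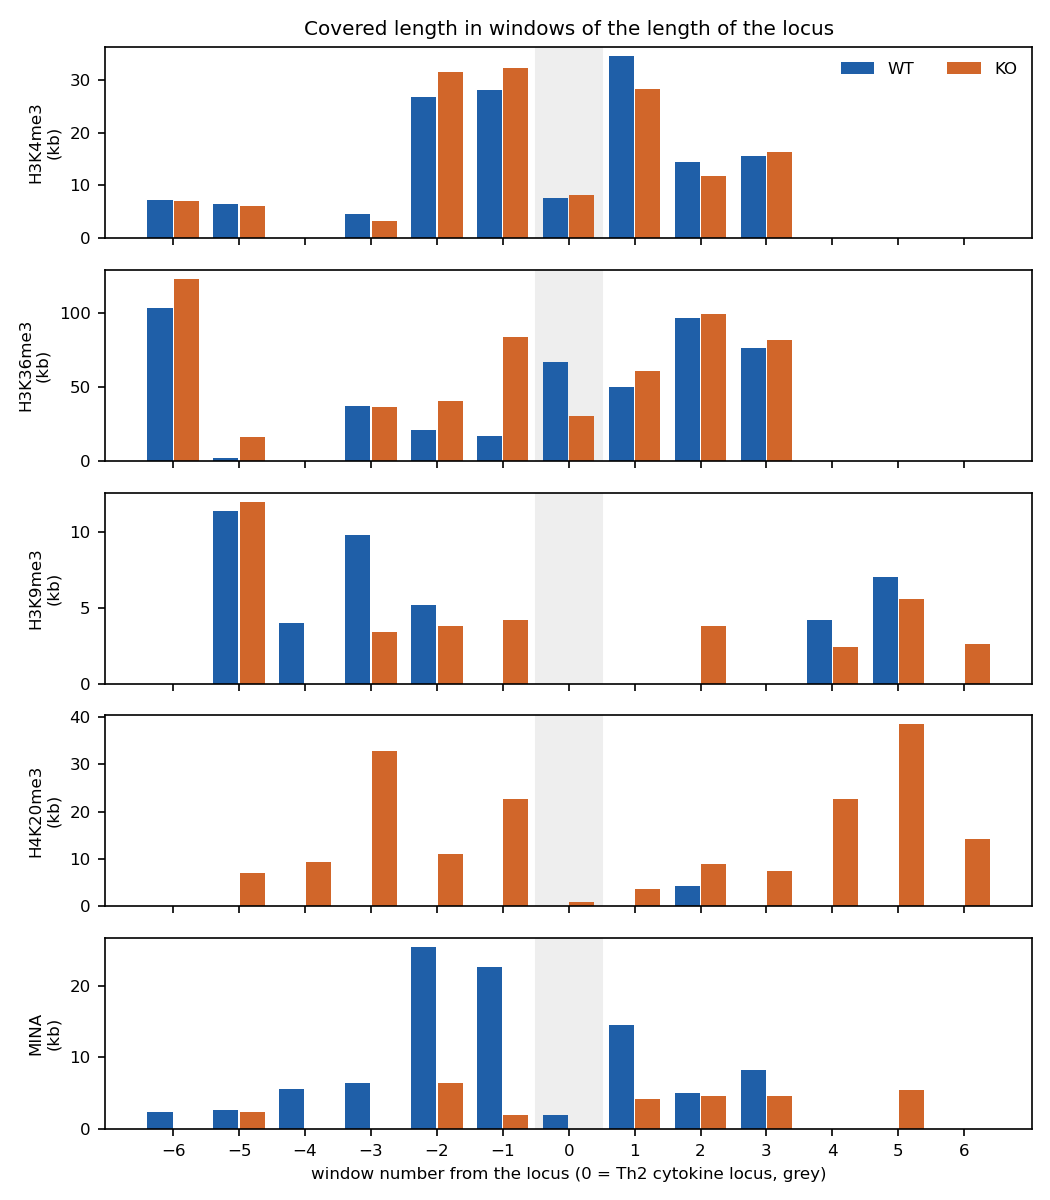
Covered length in kb (vertical axes, 1 panel per antibody) in the Th2 cytokine locus (window 0, grey) and 6 windows of the same length on either side (horizontal axis), for WT (blue) and KO (orange). In the locus H3K36me3 is 67.2 kb in WT and 30.4 kb in KO, whereas KO is above WT in 7 of the 8 other windows with enough for a call, and H4K20me3 of KO is 1.0 kb beside up to 38.4 kb.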

How the data were processed

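Per the labels' protocols chromatin of MDA-MB-231 cells with mdig (WT) or without it (KO) was immunoprecipitated with 5 antibodies. The submitters' processing notes name BWA for alignment, SICER 1.1 for calling and the build hg19. The deposited file holds other values than measurements: starts and ends of called intervals on a 200-bp grid, which the authors gave without a score, and its window, gap and scaling settings, and how input DNA entered, are not given in what was used here. Its merged list and the input DNA sample, whose label gives no genotype, were not used.

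From these coordinates covered lengths, overlaps of at least 1 bp, distances and the windows of 155 kb were computed with Python 3.11.15, on chromosomes 1 to 22 and X, and bedtools 2.31.1 gave the same lengths in the locus for all 10 lists. Gene coordinates came with the rule of the locus, rounded to 10 bp. An hg19 annotation was not used here, so intervals were not assigned to exons or introns and the receptors and signalling genes of the pathway were not looked at. The window calls were tested on simulated data. Wilson 95% intervals of the shares reach at most 1.19 percentage points over all chromosomes and 13.4 points within 10 Mb, and they cover counting error only. The named genes are the 4 members whatever their values. Members, lists and comparisons were chosen with earlier results of these data known. The alternatives were a minimum width of 2 kb, merging within 5 kb, widening the locus by 10 kb, whole intervals, other tilings, a minimum of 5 kb, autosomes only, 5 Mb of surroundings and a reach of 2 kb around gene starts.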

Additional observations from a re-analysis of the deposited data

How the results depend on the processing

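No paired analysis was possible because each antibody and genotype had 1 library and no result came from a test. Of 59 alternatives over 24 results, 52 kept the direction and stayed within 1.5 times the value reported. Some of the 52 could not differ, such as a minimum width of 2 kb for H3K9me3, with 0 kb in both genotypes. The lower H3K36me3 of the locus in KO was kept under all 4 alternatives tried for it, with covered lengths of 67.2 to 72.6 kb in WT and 30.4 to 36.2 kb in KO. The minimum width of 2 kb and the whole intervals could not alter these lengths. Each H3K36me3 interval there was at least 4.6 kb wide and lay inside RAD50. The H4K20me3 interval at the RAD50 start drops out when only intervals of at least 2 kb are kept, which leaves 0 kb in both genotypes. Within 2 kb of the IL4 start 2 lists had an interval, against 1 over the start itself. With 5 Mb in place of 10 Mb on either side the KO over WT ratio of H3K4me3 turned from 0.979 to 1.02 and that of H4K20me3 went from 8.68 to 34.8, and the cause was not tested. With a minimum of 5 kb, which leaves fewer windows, 5.42% of windows were called lower and 1.23% higher for H3K4me3, and 5.01% higher for MINA. The lists carry no score, so a stricter calling threshold could not be tried.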
